A study of Mus musculus with 9 samples.

Results

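The matrix metalloproteinases and their tissue inhibitors were followed in mouse mammary cells grown as spheres or induced to differentiate. The set held 10 genes, the proteinases Mmp2, Mmp3, Mmp9, Mmp11, Mmp13, Mmp14 and Mmp19 and the inhibitors Timp1, Timp2 and Timp3. Members were taken as every probe set (the group of short probes on an array that together measure 1 transcript) whose platform annotation gave exactly 1 of these gene symbols, which left 22 probe sets of the 20380 that named a single gene, or 10 genes of 12393. RNA of 9 cultures was hybridized to MOE430A Gene Chips, with 3 arrays in each of 3 groups. Tumorspheres (TMS) came from mammary tumors of MMTV-Neu [N2O2] mice, in which the Neu oncogene is driven by the mouse mammary tumor virus promoter in mammary epithelium, and each TMS culture was started from a separate tumor. Mammospheres (MMS) came from the bulk mammary epithelial cells of virgin female FVB/N mice of 6 to 8 weeks. Both kinds of sphere grew in suspension in a mouse stem cell medium and were harvested between passages 3 and 5. In the differentiated group (diffMMS), MMS were dissociated, plated on collagen and kept for 7 days in medium with serum, so that attachment, collagen, serum and time in culture all differed from MMS and cannot be told apart.

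Matrix metalloproteinases are zinc-dependent enzymes that are made as inactive proforms and, once their propeptide is cut or displaced, cleave collagens, laminins, other matrix proteins and many cell surface proteins. Tissue inhibitors of metalloproteinases bind the active site of the enzymes and block it, and some of them also take part in activation, as when Timp2 bridges proMmp2 to Mmp14 on the cell surface. In the mammary gland these proteins are known for the remodeling of the stroma and the basement membrane during branching and involution. The values given here are transcript levels, so that neither activation of a proenzyme nor the balance of enzyme and inhibitor protein was measured.

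The labelled cell types were first set against their markers. Of 6 luminal epithelial markers 5 were higher in TMS than in MMS, and the sum of their intensities ran from 3420 to 5080 in TMS, from 303 to 399 in MMS and from 307 to 355 in diffMMS. Epcam had a mean log2 intensity of 6.31 in MMS and 6.07 in diffMMS against 9.87 in TMS, and Cdh1, the epithelial cadherin, read 4.18 and 4.12 against 5.96. Both mammosphere groups were thus low in luminal markers. Of 6 basal and myoepithelial markers none was called between TMS and MMS. In diffMMS against MMS, Acta2 (2.59), Cnn1 (0.83) and Trp63 (0.32) were the 3 higher ones. Krt5, Krt14 and Krt17 were not called, at 0.19, -0.01 and 0.04. The intensities of the 6 summed to 682 to 777 in TMS, 646 to 727 in MMS and 2490 to 3380 in diffMMS. Most of the rise in this sum was that of Acta2, whose mean log2 intensity was 8.76 in MMS and 11.35 in diffMMS. The 10 fibroblast markers summed to between 36200 and 38400 in MMS and between 43600 and 44600 in diffMMS, against 30600 to 35700 in TMS. Bright markers weigh most in this sum, such as Col1a1 (mean log2 intensity 12.19 in MMS and 13.07 in diffMMS) and Postn (11.94 and 12.93). In diffMMS 5 fibroblast markers were higher than in MMS, led by Thy1 (1.42) and Pdgfra (1.04). The 3 lower ones were led by Lum (-1.84) and Fap (-1.04). Acta2, the smooth muscle actin of myoepithelial cells and myofibroblasts, was higher by 2.59 on the log2 scale by its brightest probe set. By the other it was higher by 0.11, which did not pass (adjusted p = 0.219). The part of these shifts in the values of the proteinases and inhibitors was not tested. In bulk RNA, fewer cells of a type and less RNA per cell cannot be told apart. The array codes of TMS were numbered apart from those of MMS and diffMMS, whose codes followed on each other, and the labels name no batch. A difference that goes with the array numbers and a difference of TMS from the other groups cannot be told apart. The median deposited intensity of an array was between 84.0 and 88.6.

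More of the members differed between diffMMS and MMS than between TMS and MMS, and the same held over all probe sets. Values below are log2 intensities after quantile normalization, a difference of 1 on this scale is a doubling, and a probe set was called when its adjusted p from limma, corrected over all 22626 probe sets tested, was under 0.05. Between diffMMS and MMS, 8 of the 22 member probe sets were higher and 7 were lower in diffMMS, with 16.1% of all probe sets higher and 17.0% lower. Between TMS and MMS, 2 were higher and 6 were lower in TMS, with 6.50% of all probe sets higher and 7.78% lower. Between TMS and diffMMS, 7 were higher and 5 were lower in TMS, with 12.2% of all probe sets higher and 11.4% lower. Probe sets of a gene are not independent, and with 1 probe set a gene, that of the highest mean, 4 of 10 genes were higher and 4 lower in diffMMS than in MMS. Of all 12393 genes, 2213 were higher and 2003 lower. By the same count 1 member was higher and 2 lower in TMS than in MMS, beside 771 and 885 of all genes. Between TMS and diffMMS 4 members were higher and 2 lower in TMS, beside 1530 and 1559 of all genes. The median difference over the 10 genes was -0.12, 0.02 and 0.07 in these comparisons, and over all genes it was 0.05, 0.00 and -0.03. The members thus split in both directions, and the 3 comparisons share arrays, each group entering 2 of them.

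**Figure D1:**
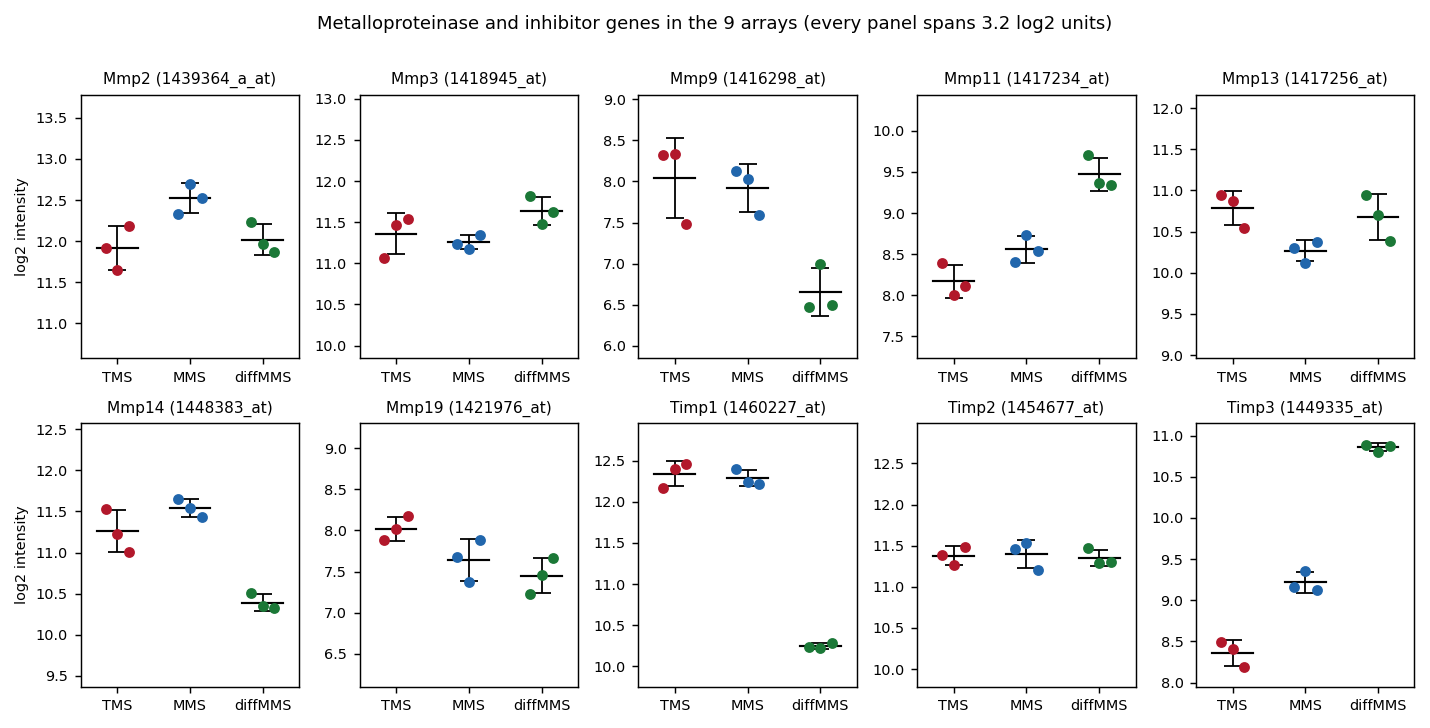
Log2 intensity (y axis) of the probe set with the highest mean of each of the 10 genes, in TMS, MMS and diffMMS (x axis). Points are arrays, 3 a group, the long bar is the group mean and the error bar 1 SD, and every panel spans the same range of log2 units. Timp1, Mmp14 and Mmp9 were lower and Timp3 and Mmp11 higher in all diffMMS arrays than in any sphere array, and the Timp2 groups overlap.

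Mmp14 was lower in diffMMS than in both kinds of sphere, and Mmp2 was lower in TMS and diffMMS than in MMS. Mmp14 encodes the membrane-type enzyme MT1-MMP, a collagenase at the cell surface that activates proMmp2. Its probe set 1448383_at read 11.53, 11.23 and 11.01 in TMS, 11.65, 11.54 and 11.43 in MMS, and 10.51, 10.35 and 10.32 in diffMMS. No diffMMS array reached the level of any sphere array, and the groups of spheres overlapped. The mean of diffMMS was 10.39 ± 0.103 (SD, n = 3) against 11.54 ± 0.109 in MMS, a 2.21-fold difference (log2 fold change -1.15, SE 0.117, adjusted p = 1.6e-05), and TMS were 1.82-fold higher than diffMMS (0.86, adjusted p = 2.0e-04). The other probe set of Mmp14, 1416572_at, was lower in diffMMS than in MMS by 2.59-fold (-1.37, SE 0.110, adjusted p = 2.2e-06). The differences of the 2 probe sets between TMS and MMS were -0.28 (95% interval -0.54 to -0.03, adjusted p = 0.136) and -0.29 (-0.53 to -0.05, adjusted p = 0.102). Neither passed the test, but both passed on the values as deposited, at -0.39 (adjusted p = 0.0122) and -0.43 (adjusted p = 0.0114), and both also passed without TMS replicate 1, at -0.42 (adjusted p = 0.0175) and -0.41 (adjusted p = 0.0204).

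Mmp2 encodes gelatinase A, which cleaves denatured collagen and type IV collagen. Its probe set 1439364_a_at read 11.92, 11.65 and 12.19 in TMS, 12.33, 12.70 and 12.52 in MMS, and 12.23, 11.96 and 11.87 in diffMMS. Every MMS array lay above every array of the other groups, and TMS and diffMMS overlapped. The gene was 1.51-fold lower in TMS than in MMS (log2 fold change -0.60, SE 0.138, adjusted p = 0.0133) and 1.41-fold lower in diffMMS than in MMS (-0.50, SE 0.138, adjusted p = 0.0165). The probe set 1416136_at gave -0.53 (adjusted p = 0.0105) and -0.37 (adjusted p = 0.0305). Between TMS and diffMMS the difference was -0.10 (95% interval -0.40 to 0.20). The calls between TMS and MMS were lost when some arrays were left out, with the differences keeping their sign. Without MMS replicate 2 the differences were -0.51 (adjusted p = 0.0694) and -0.47 (adjusted p = 0.0578), and without TMS replicate 2 the first was -0.45 (adjusted p = 0.0513). The call of 1439364_a_at between diffMMS and MMS was likewise lost without MMS replicate 2 or 3 or diffMMS replicate 2 or 3 (adjusted p from 0.0501 to 0.0812), and that of 1416136_at without MMS replicate 1 or 2 or diffMMS replicate 2 or 3 (adjusted p from 0.0721 to 0.126).

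Mmp9, which encodes gelatinase B, was lower in diffMMS than in both kinds of sphere. Its probe set 1416298_at read 8.32, 8.33 and 7.48 in TMS, 8.13, 8.03 and 7.59 in MMS, and 6.47, 6.99 and 6.50 in diffMMS. The probe set 1448291_at read 8.58, 8.53 and 7.73 in TMS, 8.21, 7.90 and 7.72 in MMS, and 5.98, 6.08 and 6.11 in diffMMS. With both, diffMMS lay apart below the spheres, TMS and MMS overlapped, and TMS replicate 3 stood below the other TMS arrays. The fall from MMS to diffMMS was 2.39-fold by the first probe set (log2 fold change -1.26, SE 0.224, adjusted p = 0.00118) and 3.70-fold by the second (-1.89, SE 0.193, adjusted p = 1.7e-05). TMS were 2.62-fold (1.39, adjusted p = 7.6e-04) and 4.66-fold (2.22, adjusted p = 5.1e-06) higher than diffMMS. The differences between TMS and MMS were 0.13 (95% interval -0.36 to 0.62) and 0.33 (-0.09 to 0.75). That of 1448291_at passed the test without TMS replicate 3 (0.60, adjusted p = 0.00513) and with array weights on all 9 arrays (0.49, adjusted p = 0.0225). Macrophages and neutrophils are known sources of Mmp9, and 6 of 10 macrophage markers were higher in TMS than in MMS and 4 were higher and 1 lower in diffMMS than in MMS. Between TMS and diffMMS 4 macrophage markers were higher in TMS and none was lower. The sum over the 10 markers was 1450 to 2370 in TMS, 727 to 800 in MMS and 826 to 1240 in diffMMS. The leading one was Lyz2, lysozyme, at 2.29 above MMS in TMS, whereas Ptprc, Itgam and Adgre1 were called in no comparison, with mean log2 intensities of 4.86, 4.68 and 5.52 in MMS, and no marker was listed at 0. Of the 5 neutrophil markers measured 1, S100a8, was higher in TMS than in MMS, by 0.31, a call lost without TMS replicate 2 or 3 or any 1 of the MMS replicates (adjusted p from 0.0544 to 0.0873), and their sum was 382 to 439 in TMS, 356 to 385 in MMS and 387 to 434 in diffMMS. Against diffMMS, S100a8 was higher in TMS by 0.46 (adjusted p = 0.00146), and no other neutrophil marker was called there. The part of macrophages and neutrophils in the Mmp9 level was not tested.

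Among the enzymes named for collagen and stromelysin activity, Mmp11 rose in diffMMS and Mmp3 and Mmp13 differed less. Mmp11, or stromelysin 3, was first known from the stroma around breast carcinoma and is activated inside the cell by furin. It read 8.39, 8.0 and 8.11 in TMS, 8.40, 8.73 and 8.54 in MMS, and 9.70, 9.36 and 9.34 in diffMMS. The 3 groups did not overlap, with TMS lowest and diffMMS highest, and the highest TMS array (8.39) lay just under the lowest MMS array (8.40). Mmp11 was 1.88-fold higher in diffMMS than in MMS (log2 fold change 0.91, SE 0.128, adjusted p = 2.1e-04) and 2.46-fold lower in TMS than in diffMMS (-1.30, SE 0.128, adjusted p = 1.5e-05). The difference between TMS and MMS of -0.39 did not pass the test (SE 0.128, adjusted p = 0.0637). It passed as deposited (-0.48, adjusted p = 0.0167), without TMS replicate 1 (-0.51, adjusted p = 0.0242) and without diffMMS replicate 1 (-0.39, adjusted p = 0.0387). Furin itself differed by 0.09 between TMS and MMS and by 0.08 between diffMMS and MMS, and was not called.

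Mmp13, the main interstitial collagenase of the mouse, read 10.94, 10.87 and 10.55 in TMS, 10.30, 10.12 and 10.37 in MMS, and 10.94, 10.70 and 10.39 in diffMMS. MMS was the lowest group, and its highest array (10.37) lay just under the lowest diffMMS array (10.39). Mmp13 was 1.43-fold higher in TMS (log2 fold change 0.52, SE 0.138, adjusted p = 0.0260) and 1.33-fold higher in diffMMS (0.41, SE 0.138, adjusted p = 0.0386) than in MMS. Neither passed on the values as deposited, at 0.34 (adjusted p = 0.0749) and 0.19 (adjusted p = 0.215). The TMS call was also lost without TMS replicate 1 or 2 or any 1 of the MMS replicates (adjusted p from 0.0504 to 0.114), and the diffMMS call without any 1 of the MMS replicates or diffMMS replicate 1 or 2 (adjusted p from 0.0563 to 0.154).

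Mmp3, or stromelysin 1, which cleaves laminin and proteoglycans and activates other proenzymes, read 11.07, 11.46 and 11.54 in TMS, 11.24, 11.18 and 11.35 in MMS, and 11.82, 11.48 and 11.63 in diffMMS. Its diffMMS arrays lay above all MMS arrays, and TMS overlapped both groups. Mmp3 was 1.31-fold higher in diffMMS than in MMS (log2 fold change 0.38, SE 0.121, adjusted p = 0.0292). It no longer passed on the values as deposited (0.28, adjusted p = 0.152) or without MMS replicate 1 or 2 or diffMMS replicate 1 or 3 (adjusted p from 0.0695 to 0.119). The difference between TMS and MMS was 0.10 (95% interval -0.16 to 0.37).

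Mmp3 and Mmp13 lie in 1 cluster of metalloproteinase genes on chromosome 9. Promoter sequences of RefSeq (build GRCm38.p6) matched 7 of the 10 members, and Mmp2, Mmp9 and Mmp19 had no entry. The 250 bases before each start were searched on both strands for the AP-1 motif TGANTCA and the PEA3 motif AGGAAG. The PEA3 motif is a form of the site bound by the ETS family, and shorter forms were not searched. Matches of the AP-1 and PEA3 motifs do not overlap each other in these members. The AP-1 motif was found in 2 of the 7, Mmp3 and Mmp13, and in 6.75% of all 32851 promoters of this length. The PEA3 motif was found in 5 of the 7, Mmp3, Mmp13, Mmp14, Timp1 and Timp3, and in 29.5% of all promoters. The 120 bases before the starts of Mmp3 (chr9:7445702-7445821, plus strand) and Mmp13 (chr9:7272394-7272513, plus strand) are shown because, of the 7 promoters searched, only these held both motifs, and capitals mark the matched letters.
Mmp3: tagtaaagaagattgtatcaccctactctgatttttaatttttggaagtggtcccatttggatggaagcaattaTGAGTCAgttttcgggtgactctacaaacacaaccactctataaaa
Mmp13: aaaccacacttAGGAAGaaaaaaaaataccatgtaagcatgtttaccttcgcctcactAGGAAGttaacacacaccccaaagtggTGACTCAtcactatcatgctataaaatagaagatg
The AP-1 match runs from 46 to 40 bases before the start of Mmp3 and from 35 to 29 bases before that of Mmp13. The PEA3 match of Mmp3, from 183 to 178 bases before the start, lies outside the stretch shown. Those of Mmp13 run from 109 to 104 and from 62 to 57 bases before the start. These are matches of letters, and binding was not measured.

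Mmp19, an enzyme of basement membrane and other substrates, was higher in TMS than in diffMMS. Its probe set 1421976_at read 7.88, 8.02 and 8.17 in TMS, 7.68, 7.37 and 7.88 in MMS, and 7.23, 7.46 and 7.66 in diffMMS, and 1421977_at read 7.45, 7.56 and 7.96, 7.65, 7.29 and 7.84, and 7.04, 7.30 and 7.22 in the same order. With both probe sets all TMS arrays lay above all diffMMS arrays, and MMS overlapped diffMMS. The differences between TMS and diffMMS were 0.57 (SE 0.137, adjusted p = 0.00957) and 0.47 (SE 0.151, adjusted p = 0.0420). The second was lost under 9 alternatives (adjusted p from 0.0514 to 0.133), the first under none of the alternatives run. The 9 were arrays centred on the median, limma without trend, array weights, and leaving out TMS replicate 2 or 3, MMS replicate 1 or any 1 of the diffMMS replicates. For TMS against MMS the values were 0.38 (adjusted p = 0.0877) and 0.06 (adjusted p = 0.834). Between diffMMS and MMS they were -0.19 (adjusted p = 0.310) and -0.40 (adjusted p = 0.0589). The latter passed under 8 alternatives (adjusted p from 0.0188 to 0.0491). Among these were the values as deposited (-0.44, adjusted p = 0.0491) and leaving out MMS replicate 2 (-0.55, adjusted p = 0.0188), TMS replicate 1 (-0.41, adjusted p = 0.0469) or TMS replicate 3 (-0.40, adjusted p = 0.0226).

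Of the inhibitors, Timp1 fell and Timp3 rose in diffMMS. Timp1, a secreted inhibitor that also binds proMmp9, read 12.17, 12.40 and 12.46 in TMS, 12.40, 12.24 and 12.22 in MMS, and 10.24, 10.22 and 10.29 in diffMMS. The sphere groups overlapped, and each of their arrays lay above every diffMMS array. Timp1 was 4.10-fold lower in diffMMS than in MMS (log2 fold change -2.04, SE 0.0849, adjusted p = 1.0e-08) and 4.25-fold higher in TMS than in diffMMS (2.09, SE 0.0849, adjusted p = 7.9e-09). Between TMS and MMS the difference was 0.05, with a 95% interval of -0.13 to 0.24 (adjusted p = 0.750). The 120 bases before the start of Timp1 (RefSeq, GRCm38.p6, chrX:20870046-20870165, plus strand) are given as those of the member with the largest fall between these groups, with the PEA3 letters in capitals.
Timp1: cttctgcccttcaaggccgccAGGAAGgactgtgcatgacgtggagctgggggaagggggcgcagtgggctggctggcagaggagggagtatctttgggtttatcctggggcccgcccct
This match runs from 99 to 94 bases before the start. Another, from 175 to 170, lies upstream of the stretch shown, and no AP-1 match was found in the 250 bases.

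Timp3, which binds the extracellular matrix and also inhibits several ADAM and ADAMTS proteinases, had the widest range of the 10 genes. Its probe set 1449335_at read 8.49, 8.41 and 8.19 in TMS, 9.16, 9.36 and 9.13 in MMS, and 10.89, 10.80 and 10.88 in diffMMS. The groups followed in the order TMS, MMS and diffMMS without overlap. Timp3 was 3.11-fold higher in diffMMS than in MMS (log2 fold change 1.64, SE 0.0926, adjusted p = 1.2e-07) and 1.81-fold lower in TMS than in MMS (-0.86, SE 0.0926, adjusted p = 1.2e-04). From TMS to diffMMS the difference was 5.64-fold (-2.49, SE 0.0926, adjusted p = 4.5e-09). The other 3 probe sets, 1419089_at, 1419088_at and 1449334_at, had the same order with no overlap, at 1.91, 1.75 and 1.19 for diffMMS against MMS (largest adjusted p = 3.5e-07) and -0.51, -0.52 and -0.46 for TMS against MMS (largest adjusted p = 0.00210). All 12 calls of Timp3 and the calls of Timp1 in diffMMS held under every alternative run at an adjusted p under 0.05.

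Timp2 stood apart from the other inhibitors in that its best measured probe set differed little between groups. This probe set, 1454677_at, read 11.39, 11.26 and 11.49 in TMS, 11.46, 11.53 and 11.20 in MMS, and 11.47, 11.29 and 11.30 in diffMMS. All 3 groups overlapped, and the 95% intervals of the differences were -0.23 to 0.19 for TMS against MMS, -0.25 to 0.17 for diffMMS against MMS and -0.18 to 0.24 for TMS against diffMMS. The other 5 probe sets of Timp2 had log2 fold changes of 0.14 to 0.43 for TMS against MMS, and of these only 1420924_at was called (0.43, SE 0.104, adjusted p = 0.0160). It read 9.57, 9.45 and 9.77 in TMS, 9.34, 9.03 and 9.11 in MMS and 9.39, 9.53 and 9.34 in diffMMS, and it no longer passed on the values as deposited (0.27, adjusted p = 0.169), without MMS replicate 2 (adjusted p = 0.0800) and without MMS replicate 3 (adjusted p = 0.0674). Between diffMMS and MMS only 1450040_at was called (0.36, SE 0.122, adjusted p = 0.0398), and this was lost as deposited (0.11, adjusted p = 0.376) and without TMS replicate 2, MMS replicate 2 or 3 or diffMMS replicate 1 (adjusted p from 0.0512 to 0.154). Against MMS, 1454677_at differed by -0.02 in TMS and -0.04 in diffMMS, and the other 5 had positive differences in both. For TMS against MMS, 1433662_s_at and 1460287_at passed with the filter on dim probe sets (adjusted p = 0.0445 and 0.0469). With array weights 1460287_at and 1437081_at passed (adjusted p = 0.0243 and 0.0374), and 1437081_at was dim, at percentile 18.2 by mean. Under some alternatives 1420924_at and 1437081_at passed for diffMMS against MMS. No difference was called over all 6.

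**Figure D2:**
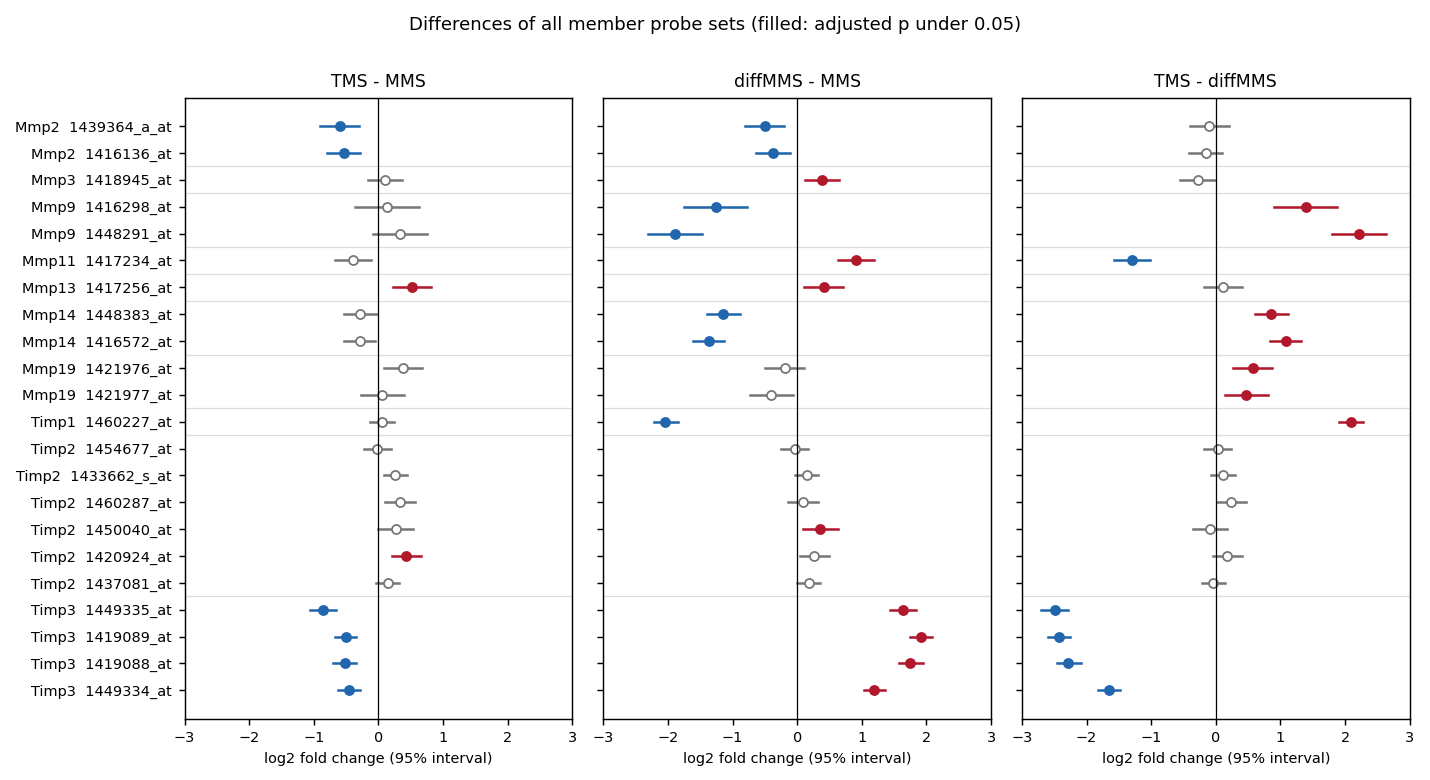
Log2 fold change (x axis) of each of the 22 probe sets of the 10 genes for TMS against MMS, diffMMS against MMS and TMS against diffMMS. Points are limma estimates, bars their 95% intervals, filled points have an adjusted p under 0.05 (red higher, blue lower), and the 4 probe sets of Timp3 are called in all 3 panels whereas the first one of Timp2 is called in none.

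The genes whose profile over the 9 arrays was most like that of the 3 members of widest range were ranked by the root mean square difference of the centred log2 values, as a description. For Timp3 these were Col3a1 (a chain of type III collagen, probe set 1427884_at), at 0.172, Plac8 at 0.193 and Marcks at 0.213. For Timp1 they were Sdc1, syndecan 1, at 0.140, Mme, the cell surface peptidase CD10, at 0.149 and Id2 at 0.151. For Mmp9 they were Spred1, an inhibitor of Ras signaling, at 0.176, Scd2 at 0.215 and S100a16 at 0.247. Col3a1 by this probe set went from 8.21 in TMS to 9.30 in MMS and 10.73 in diffMMS. By its brightest probe set, 1427883_a_at, Col3a1 changed less, from 12.33 to 12.75 and 13.18 in the same order. Sdc1 went from 10.24 and 10.27 in the spheres to 8.19 in diffMMS.

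Among the other metalloproteinases, 11 of the 16 listed were measured, and none was called between TMS and MMS. Between diffMMS and MMS 5 were higher and 2 lower. Mmp10, stromelysin 2, read 8.94, 9.41 and 10.19 in TMS, 10.03, 10.21 and 10.28 in MMS, and 7.74, 7.65 and 7.58 in diffMMS, so that diffMMS lay below every sphere array. It was 5.72-fold lower in diffMMS than in MMS (log2 fold change -2.52, SE 0.227, adjusted p = 6.1e-06), a larger fall than that of any member. Mmp23 was 2.58-fold higher in diffMMS (1.37, adjusted p = 1.1e-06) and Mmp17 1.38-fold higher (0.46, adjusted p = 0.00425), while Mmp16 was 1.49-fold lower (-0.57, adjusted p = 0.00187). Between TMS and diffMMS 3 were higher and 3 lower in TMS, with Mmp10 at 1.86, Mmp12, the macrophage elastase, at 0.83 (adjusted p = 0.0468) and Mmp23 at -1.45. Mmp12 read 5.35, 5.57 and 6.78 in TMS and 5.27, 4.96 and 4.98 in diffMMS, so that TMS replicate 3 carried much of its difference. Without that array it was 0.39 (adjusted p = 0.0228), and it no longer passed without any 1 of the MMS or diffMMS replicates (adjusted p from 0.0638 to 0.125).

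Other inhibitors and binding partners of the enzymes were all 8 measured, with 2 higher in TMS than in MMS and, in diffMMS against MMS, 2 higher and 3 lower. Lcn2, lipocalin 2, which forms a complex with Mmp9 protein, read 12.36, 12.05 and 12.50 in TMS, 6.34, 6.96 and 7.33 in MMS, and 6.33, 6.56 and 6.49 in diffMMS. It was 42.9-fold higher in TMS than in MMS (log2 fold change 5.42, SE 0.199, adjusted p = 2.9e-08), whereas Mmp9 overlapped between the same groups. The luminal markers were also higher in TMS, as given above, and the part of luminal cells in the Lcn2 level was not tested. Tfpi2, an inhibitor of serine proteinases that protects matrix, was 6.91-fold lower in diffMMS than in MMS (-2.79, SE 0.342, adjusted p = 7.4e-05), and its TMS arrays spread from 8.58 to 10.51. Reck, a membrane-anchored inhibitor of several metalloproteinases, was 1.73-fold higher in diffMMS than in MMS (0.79, SE 0.176, adjusted p = 0.00505) and 2.23-fold lower in TMS than in diffMMS (-1.16, adjusted p = 4.9e-04). Cd44, a docking site for Mmp9 at the cell surface, was lower in diffMMS than in MMS by its brightest probe set (-0.66, adjusted p = 0.00939) but not called by 1452483_a_at (-0.43, adjusted p = 0.0515). For TMS against MMS the brightest one was not called (0.30, adjusted p = 0.272), whereas 1452483_a_at was higher in TMS (0.79, adjusted p = 0.00515). Bsg, which encodes the metalloproteinase inducer EMMPRIN, was higher in both TMS (0.35, adjusted p = 0.00542) and diffMMS (0.51, adjusted p = 1.8e-04) than in MMS. Timp4 was called in no comparison, with differences of -0.02, -0.05 and 0.03.

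**Figure D3:**
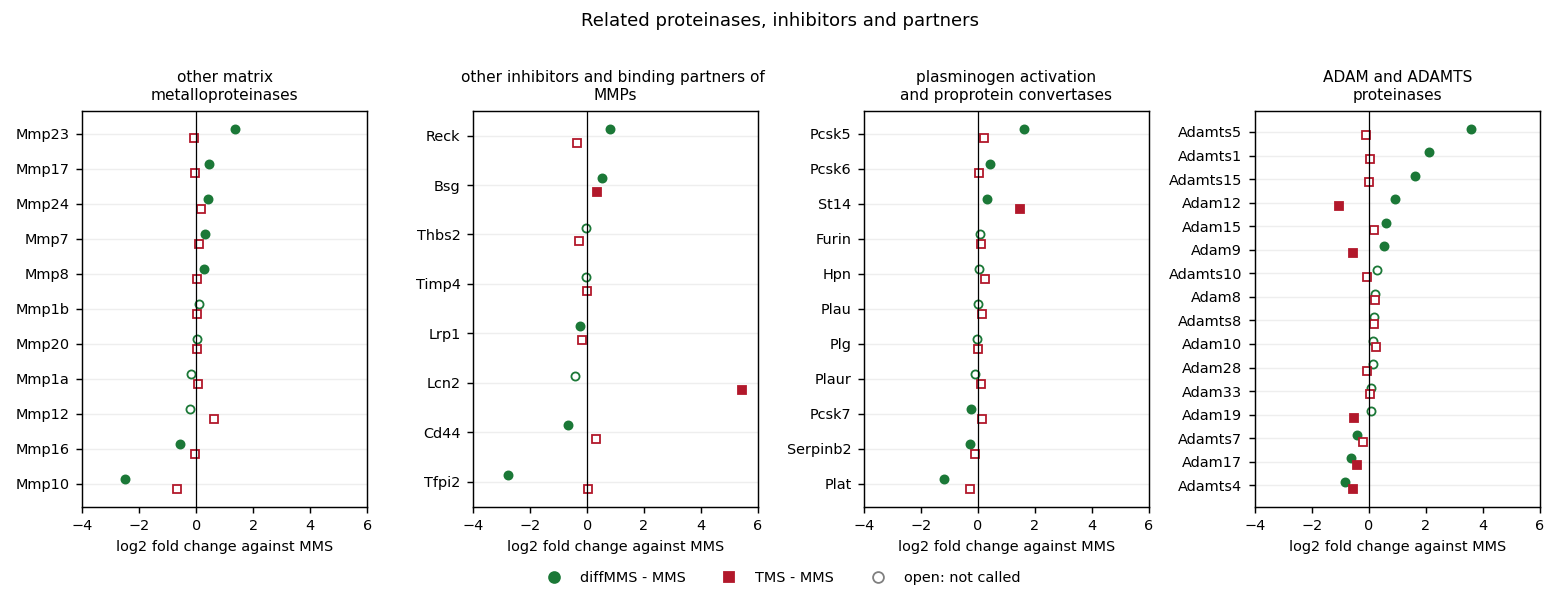
Log2 fold change against MMS (x axis) of the related proteinases, inhibitors and partners, with diffMMS as green circles and TMS as red squares and open symbols for an adjusted p of 0.05 or over. In diffMMS Adamts5 (3.60) and Adamts1 (2.11) lie far right and Mmp10 (-2.52) and Tfpi2 (-2.79) far left, and in TMS Lcn2 (5.42) lies far right.

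Of the 13 listed genes of plasminogen activation and the proprotein convertases, which are not all enzymes, 11 were measured. St14, the serine proteinase matriptase, was the only one called between TMS and MMS (log2 fold change 1.46, 2.75-fold, SE 0.0857, adjusted p = 8.8e-07). It is an epithelial gene, and the luminal markers were higher in TMS as given above, and the part of these cells in the St14 level was not tested. Plat, tissue plasminogen activator, was 2.32-fold lower in diffMMS than in MMS (-1.21, SE 0.0984, adjusted p = 2.4e-06). Pcsk5 was 3.08-fold higher (1.62, SE 0.140, adjusted p = 4.1e-06) by its brightest probe set, and its other probe sets gave -0.05, 0.64 and 0.12. In all, 3 of these genes were higher and 3 lower in diffMMS than in MMS. The lower ones included Serpinb2, an inhibitor and not an enzyme (-0.27, adjusted p = 0.00239), which was dim, at percentile 3.35 by mean.

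Of the ADAM and ADAMTS proteinases, several of which Timp3 inhibits, 16 of 20 were measured, and 6 were higher and 3 lower in diffMMS than in MMS. Adamts5, an aggrecanase, read 6.64, 6.73 and 6.91 in MMS and 10.10, 10.53 and 10.46 in diffMMS, a 12.1-fold difference (log2 fold change 3.60, SE 0.132, adjusted p = 4.2e-09). Adamts1 was 4.31-fold higher (2.11, SE 0.167, adjusted p = 2.0e-06), while Adamts4, another aggrecanase, was 1.78-fold lower (-0.83, adjusted p = 2.5e-05) and Adam17, the TNF-converting enzyme, 1.54-fold lower (-0.62, adjusted p = 4.9e-04), with -0.31 and -0.46 by its other probe sets, both called. In TMS against MMS none was higher and 5 were lower, among them Adam12 (-1.05, adjusted p = 1.1e-04) and Adam9 (-0.56, adjusted p = 0.0259). Adam9 no longer passed without TMS replicate 1 or 2 or any 1 of the MMS replicates (adjusted p from 0.0641 to 0.0922). The median difference of the list was 0.19 for diffMMS against MMS and -0.07 for TMS against MMS, beside 0.05 and 0.00 over all genes.

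Transcription factors of the AP-1 and ETS families, for which the AP-1 and PEA3 motifs were searched above, were measured for 12 of 14 listed genes. Between diffMMS and MMS 4 were higher and 5 lower. Jun was 3.33-fold lower in diffMMS than in MMS (log2 fold change -1.74, SE 0.141, adjusted p = 2.4e-06) by its brightest probe set and 1.90-fold lower (-0.93, adjusted p = 2.1e-04) by the other. Etv4, which encodes the factor PEA3, was 2.68-fold lower (-1.42, SE 0.128, adjusted p = 5.9e-06), while Fosl2 (0.49) and Jund (0.41) were higher. In the same comparison Mmp3 and Mmp13, which hold the letters of both motifs, had differences of 0.38 and 0.41, and both calls were lost on the values as deposited. Of the other members with the PEA3 letters, Mmp14 (-1.15) and Timp1 (-2.04) were lower and Timp3 (1.64) was higher. The part of these factors in the levels of the members was not tested. Between TMS and MMS 3 factors were higher, with Junb at 0.75 (adjusted p = 0.00149) and Etv5 at 0.46 (adjusted p = 0.0317), and none was lower. Etv5 no longer passed without TMS replicate 1 or 3, any 1 of the MMS replicates or diffMMS replicate 3 (adjusted p from 0.0508 to 0.124), and its other probe set gave 0.63 (adjusted p = 0.00960). The median of this list was -0.26 for diffMMS against MMS and 0.26 for TMS against MMS.

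The matrix proteins that the enzymes cleave were all 12 measured. Between diffMMS and MMS 7 were higher and 3 lower, and between TMS and MMS none was higher and 4 were lower. Sparc (0.93, adjusted p = 8.9e-07) and Col1a1 (0.87, adjusted p = 2.5e-05), a chain of type I collagen, were higher in diffMMS than in MMS. The chains of type IV collagen of basement membrane were lower in both comparisons, Col4a1 by -0.95 in diffMMS and -0.83 in TMS and Col4a2 by -0.89 and -1.04. The median of the list was 0.34 for diffMMS against MMS and -0.21 for TMS against MMS.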

How the data were processed

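Total RNA of 9 cultures, 3 each of TMS, MMS and diffMMS, was profiled on MOE430A arrays. The authors deposited 1 intensity per probe set and array on a linear scale, already summarized and scaled; they name GeneSpring for the analysis, and the summary method and scaling are not given in the sources used here. The table held 22690 probe sets, and 64 Affymetrix controls were left out. Intensities were turned into log2(intensity + 8.67), the pseudocount being 10% of the median of all values, and quantile normalized because array quartiles differed by 0.134, over a limit of 0.1. Fold changes are on this scale and understate those of dim genes. The number of arrays limits the precision. All 9 arrays entered limma 3.58.1 (R 4.3.3; lmFit, eBayes with trend), with 6 residual degrees of freedom, so that standard errors share the spread of the 3 groups, and p-values were adjusted by Benjamini-Hochberg over 22626 probe sets. The script was checked on simulated data. The arrays stand for independent cell populations per the labels, replicates were numbered in accession order, and no pairing is given.

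Symbols came from the platform annotation, with 20380 probe sets naming 1 gene, 691 several and 1555 none; 20351 matched RefSeq of GRCm38.p6 and none changed. Levels of different probe sets were not compared. The probe set of the highest mean stands for a gene in lists. Named were all members, per list and comparison up to 2 called genes with the largest rise and 2 with the largest fall, and the 3 nearest profiles of the 3 members of widest range. Furin, Timp4, the epithelial markers at the start, and Ptprc, Itgam and Adgre1 were named outside this rule, after their values were seen. Members and lists were chosen with earlier results of these data known. Alternatives were the values as deposited, arrays centred on the median, 2 other pseudocounts, a filter on dim probe sets, 3 variance settings, only the groups compared, a threshold of 0.01 and leaving out each array, which for the named genes of the lists was added after seeing the data. Figures were drawn with matplotlib 3.10.9 (Python 3.11.15). Quantitative RT-PCR was not used here.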

Additional observations from a re-analysis of the deposited data

How the results depend on the processing

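Over the 66 comparisons of member probe sets, 1098 of 1185 alternatives left the side of the threshold as it was and none turned a called direction. Of 35 calls 25 held under every alternative run at the 0.05 threshold, and 10, of Mmp2, Mmp3, Mmp13, Mmp19 and Timp2, were lost under some, while 12 comparisons gained a call under some. The cause was not tested. For TMS against MMS, 8 member probe sets were called, 15 with array weights, 4 at an adjusted p under 0.01, and 4 to 11 when 1 array was left out, the lowest without MMS replicate 2. Over all probe sets that comparison gave 3231 calls, 5860 with array weights, 1549 at an adjusted p under 0.01, and 1863 to 4088 when 1 array was left out, with 1863 without MMS replicate 2 and 1907 without MMS replicate 3. At an adjusted p under 0.01 diffMMS against MMS gave 4456 calls over all probe sets in place of 7489, and TMS against diffMMS 3166 in place of 5353. With arrays centred on the median, the calls split into 1225 higher and 2366 lower for TMS against MMS (34.1% higher in place of 45.5%) and 2903 and 4673 for diffMMS against MMS (38.3% in place of 48.6%). Of the members, 0 were then higher and 9 lower in TMS than in MMS, as with the values as deposited. No paired analysis was possible because the labels give no shared replicate numbers.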
